A study of Homo sapiens with 6 samples.

Results

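The genes described here are 10 immediate early transcription factors chosen by name: the FOS family members FOS, FOSB, FOSL1 and FOSL2, the JUN family members JUN, JUNB and JUND, and EGR1, ATF3 and IER2. All 10 were among the 26195 genes listed, and all 10 passed the filter on low counts that left 10445 genes for testing. FOS and JUN proteins pair through leucine zippers to form AP-1, which binds short DNA elements in promoters and enhancers. Immediate early genes are switched on within minutes by growth factors, serum or stress, because the factors that read those signals are already in the cell. In lung cancer cells driven by EGFR, the ERK pathway feeds this group, and FOSL1 in particular is kept up by sustained ERK activity.

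The cells were PC9, an established line from a human lung adenocarcinoma whose EGFR carries an activating mutation, and erlotinib is a kinase inhibitor of EGFR. Single cells were profiled by Drop-seq, which captures the 3′ ends of transcripts on barcoded beads and counts molecules by unique molecular identifiers (UMIs). There were 6 libraries, 1 for each condition. In 4 of them the cells had erlotinib at 2 µM for 1 day together with a manipulation of KDM5, a family of histone H3 lysine 4 demethylases: the KDM5 inhibitor CPI-455 at 6.25 µM for 4 days, a lentiviral KDM5A shRNA, lentiviral shRNAs labelled as against KDM5A and KDM5B, or a lentiviral KDM5A cDNA driven by the CMV promoter. Erlotinib was added on day 4, 5 and 6 after transduction in the KDM5A shRNA, KDM5A and KDM5B shRNA, and KDM5A cDNA libraries. The 2 drug-free libraries were cells transduced with a scrambled shRNA and untreated cells with neither virus nor drug. Transduced cells were kept in medium with 10% serum and the growth medium held 5%, so virus and serum cannot be told apart in a comparison of transduced with untransduced cells. No library had erlotinib alone, so erlotinib cannot be told apart from having a KDM5 manipulation beside it. All cells were detached with trypsin before capture, a step at which immediate early genes can also respond, and its part in the levels was not tested.

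After cells under 500 UMIs or over 20% mitochondrial UMIs were left out, the libraries held 131 to 374 cells under erlotinib, with 590091 to 1596385 UMIs, against 263 cells in scrambled shRNA and 1166 in untreated. Untreated cells were the shallowest, with a median of 1493.5 UMIs a cell against 2985.5 to 3762.5 in the other 5 libraries. The mitochondrial share was 7.04% to 9.18% in the erlotinib libraries, against 5.03% in scrambled shRNA and 3.98% in untreated. KDM5A stood at 56.4 CPM (UMIs scaled to the total of the library) in KDM5A shRNA, 41.3 CPM in the library labelled KDM5A and KDM5B shRNA and 164 CPM in KDM5A cDNA, against 81.9 CPM in scrambled shRNA. KDM5B was at 138 CPM in the library labelled KDM5A and KDM5B shRNA, against 46.4 CPM in scrambled shRNA, which goes against that label; it was at 151 CPM in KDM5A shRNA, 102 CPM in CPI-455 and 94.9 CPM in KDM5A cDNA. The 6 epithelial markers were all expressed, with sums of 8080 to 11787 CPM under erlotinib, against 8700 CPM in scrambled shRNA and 7877 CPM in untreated. Of the alveolar markers, NKX2-1 had 1 UMI in all libraries and NAPSA 6, and SFTPB and SFTPC were not listed. Of 10 markers of other cell types 5 were listed, with sums of 22.0 to 46.9 CPM under erlotinib, against 44.8 CPM in scrambled shRNA and 37.2 CPM in untreated, most of it CD68. A single cell barcode was shared by 2 libraries.

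Promoters are shown for 4 members: FOS and FOSB, which rose under erlotinib, EGR1, which was low in KDM5A cDNA among the erlotinib libraries, and JUND, whose direction turned on the drug-free library used. The sequences are from RefSeq on GRCh38.p14 and run 5′ to 3′ on the gene's strand from 250 bases before to 50 bases after the annotated start; 9 of the 10 members matched by symbol, all but FOSL1. The FOS window is chr14:75278578-75278877 (plus strand), FOSB is chr19:45467746-45468045 (plus), EGR1 is chr5:138465229-138465528 (plus) and JUND is chr19:18281573-18281872 (minus). Capitals mark matches, on either strand, to the CRE core TGACGT (the element bound by CREB and ATF proteins), the CRE-like element TGACNTCA, the AP-1 element TGANTCA, the EGR element GCGNGGGCG or the CArG box bound by serum response factor. CRE core and CRE-like matches can overlap.
FOS: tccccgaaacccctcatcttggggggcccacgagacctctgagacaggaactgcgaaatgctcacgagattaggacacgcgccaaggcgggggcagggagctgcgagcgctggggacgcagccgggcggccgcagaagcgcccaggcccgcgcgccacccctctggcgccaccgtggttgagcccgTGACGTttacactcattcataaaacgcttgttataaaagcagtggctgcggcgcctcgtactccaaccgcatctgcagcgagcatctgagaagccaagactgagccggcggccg
FOSB: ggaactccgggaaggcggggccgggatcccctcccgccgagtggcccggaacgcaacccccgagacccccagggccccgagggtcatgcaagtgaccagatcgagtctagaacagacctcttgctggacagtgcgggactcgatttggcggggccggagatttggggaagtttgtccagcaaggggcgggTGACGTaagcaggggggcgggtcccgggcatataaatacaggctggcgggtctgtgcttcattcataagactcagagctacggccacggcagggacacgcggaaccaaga
EGR1: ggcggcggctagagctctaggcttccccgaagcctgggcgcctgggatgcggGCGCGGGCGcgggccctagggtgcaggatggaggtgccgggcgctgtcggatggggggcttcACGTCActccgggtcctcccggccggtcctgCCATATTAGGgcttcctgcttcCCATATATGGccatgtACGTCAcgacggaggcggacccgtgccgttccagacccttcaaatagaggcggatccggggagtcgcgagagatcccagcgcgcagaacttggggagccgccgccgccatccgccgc
JUND: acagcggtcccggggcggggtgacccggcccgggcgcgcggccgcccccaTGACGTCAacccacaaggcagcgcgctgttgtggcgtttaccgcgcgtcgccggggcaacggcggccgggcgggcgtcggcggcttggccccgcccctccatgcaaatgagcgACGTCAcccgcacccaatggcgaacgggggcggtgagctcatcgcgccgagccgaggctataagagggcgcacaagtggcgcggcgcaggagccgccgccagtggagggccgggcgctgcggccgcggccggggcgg
FOS and FOSB each held 1 CRE core, at bases -64 and -60 counted from the start. EGR1 held 2 CArG boxes, at -105 and -83, 2 CRE cores and 1 EGR element. JUND held 3 CRE cores, 2 of which overlap inside a CRE-like match. Over the 9 members the CRE core was in 5, against 7.98% of all 35116 promoters of the same length. The CRE-like element was in 3 (JUN, ATF3 and JUND), against 7.72%. A member counted if any of its promoters matched, while the percentages are over single promoters. ATF3 had more than 1 promoter, and not all of them held the CRE-like match. The AP-1 element was in 1 (FOSL2), against 7.71%, the EGR element in 1, against 9.43%, and the CArG box in 1, against 1.29%. These are letter matches inside the window and were not tested as binding sites. Elements further upstream than 250 bases were not searched, so a motif missing here can still lie there.

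Under erlotinib FOS, FOSB, JUNB and ATF3 rose and FOSL1 fell, while FOSL2, JUN, JUND, EGR1 and IER2 did not pass the test. The FOS family had a different make-up, mostly FOSL1 in the drug-free libraries and mostly FOS in the erlotinib libraries. The test was edgeR's quasi-likelihood test on UMIs summed per library, 4 erlotinib libraries against 2 drug-free ones, with Benjamini-Hochberg adjustment over all 10445 genes and a threshold of 0.05. Of all genes tested 10.0% were higher and 13.5% lower, and of the members 4 were higher and 1 was lower. The median log2 fold change was 1.24 over the members, 8 of which were above 0, and 0.01 over all genes. Since the 4 erlotinib libraries are different conditions, their spread holds both the manipulations and the technical error, and nothing in the labels gives separate cultures of 1 condition.

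FOS, the inducible partner of the JUN proteins, was at 279 CPM in CPI-455, 207 CPM in KDM5A shRNA, 135 CPM in the library labelled KDM5A and KDM5B shRNA and 62.7 CPM in KDM5A cDNA, against 22.4 CPM in scrambled shRNA and 34.4 CPM in untreated. All 4 erlotinib libraries lay above both drug-free ones, and each library was apart from the next in order by its 95% counting interval. The log2 fold change was 2.61 (SE 0.54, edgeR adjusted p = 0.0108). The call rests on both drug-free libraries: without scrambled shRNA the fold was 2.38 (edgeR adjusted p = 0.105) and without untreated it was 2.92 (edgeR adjusted p = 0.0739).

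FOSB, an inducible relative of FOS, was at 56.1 CPM in CPI-455, 60.8 CPM in KDM5A shRNA, 42.7 CPM in the library labelled KDM5A and KDM5B shRNA and 20.3 CPM in KDM5A cDNA, against 2.32 CPM in scrambled shRNA and 12.1 CPM in untreated. The groups did not overlap, although the scrambled shRNA value rests on 3 UMIs and the KDM5A cDNA value, on 12 UMIs, was not apart from untreated by its counting interval. Its log2 fold change was 2.51 (SE 0.55, edgeR adjusted p = 0.0115), and 4.23 without untreated. FOSB overlaps ERCC1 on the opposite strand in the GENCODE annotation, and whether the counting used strand is not given in the sources used here. ERCC1 itself was at 52.5 to 82.7 CPM under erlotinib, against 48.7 CPM in scrambled shRNA and 49.3 CPM in untreated.

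FOSL1 (FRA-1), the FOS relative that follows sustained ERK signalling, went the other way. It was at 8.01 CPM in CPI-455, 5.01 CPM in KDM5A shRNA, 8.27 CPM in the library labelled KDM5A and KDM5B shRNA and 15.3 CPM in KDM5A cDNA, against 131 CPM in scrambled shRNA and 86.9 CPM in untreated. Each erlotinib library held 6 to 9 FOSL1 UMIs, against 170 in scrambled shRNA and 344 in untreated. Among the 4 erlotinib libraries none was apart from its neighbour by counting error. Untreated was apart from KDM5A cDNA, the highest of the 4, at a ratio of 5.70 (2.97 to 12.6). The log2 fold change was -3.65 (SE 0.36, edgeR adjusted p = 0.000171). FOSL1 was called lower under each of the alternatives run.

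FOSL2 (FRA-2), the fourth family member, was at 34.3 CPM in CPI-455, 55.1 CPM in KDM5A shRNA, 53.7 CPM in the library labelled KDM5A and KDM5B shRNA and 22.0 CPM in KDM5A cDNA, against 16.2 CPM in scrambled shRNA and 29.3 CPM in untreated. The KDM5A cDNA value lay between the drug-free values, and the log2 fold of 0.89 (SE 0.39) did not pass (edgeR adjusted p = 0.116).

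**Figure D1:**
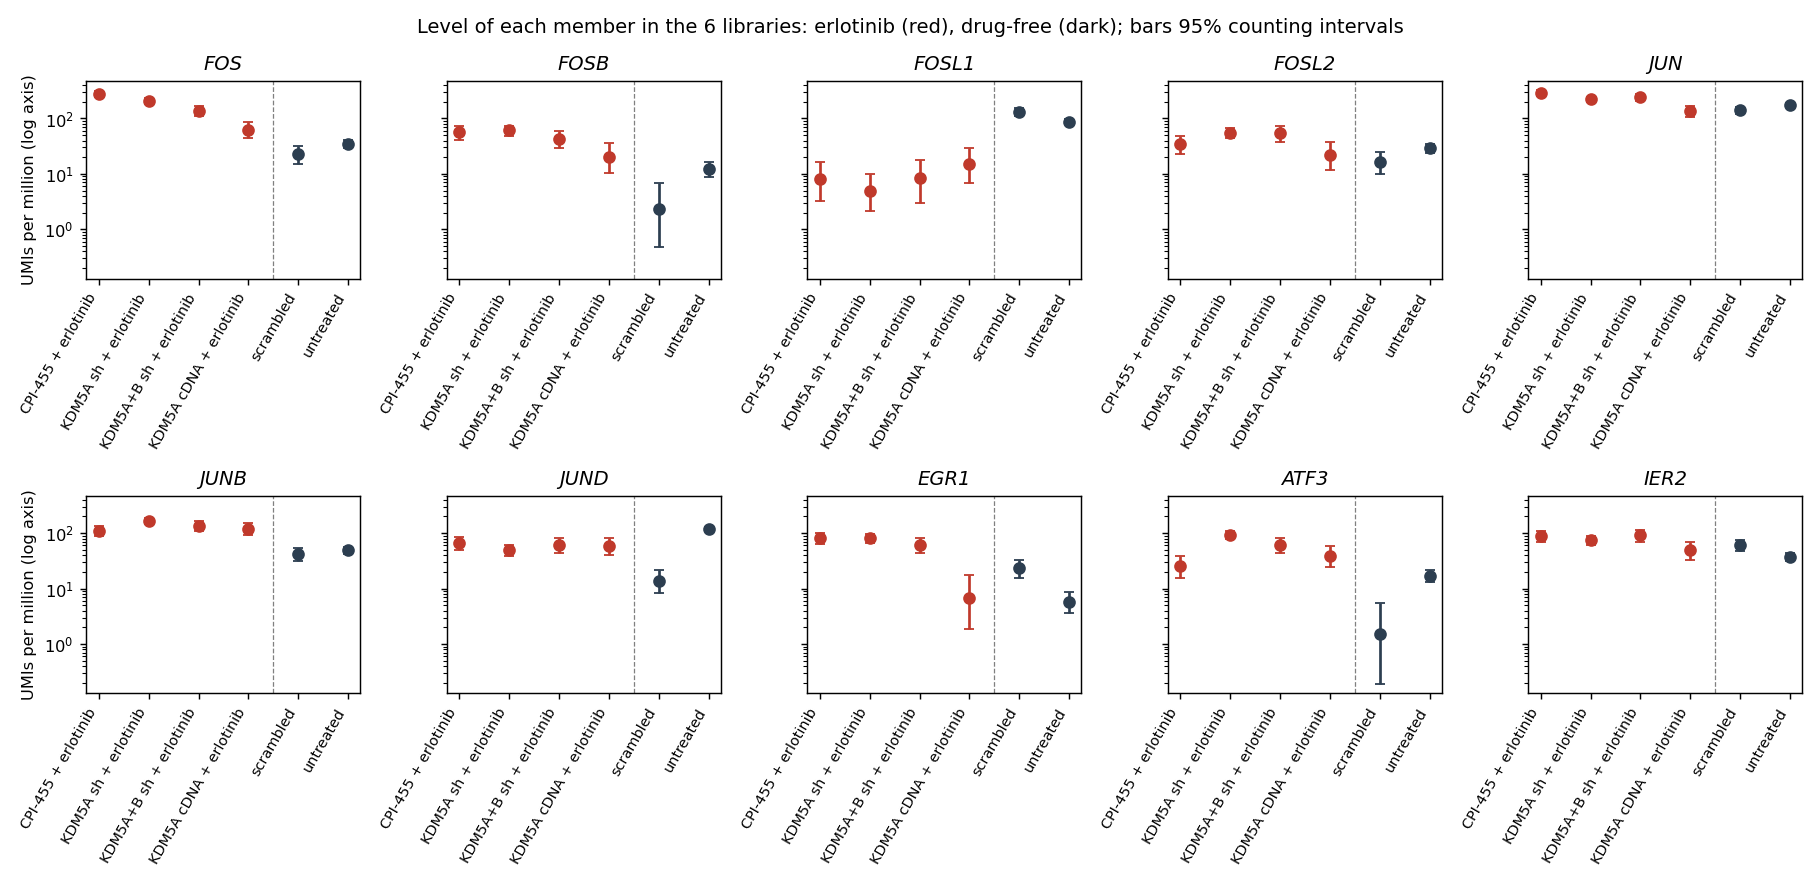
UMIs scaled to the library total (CPM, log axis) of the 10 genes in the 6 libraries, with 95% counting intervals, erlotinib libraries to the left of the drug-free ones. FOS, FOSB, JUNB and ATF3 lie higher in all 4 erlotinib libraries than in both drug-free ones, and FOSL1 lies lower.

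The make-up of the FOS family shows the change without reference to the rest of the library. Since 3′ tags count a transcript once whatever its length, UMIs of relatives can be set side by side, although capture can differ between genes. FOS held 73.9% of the family's UMIs in CPI-455, 63.1% in KDM5A shRNA, 56.3% in the library labelled KDM5A and KDM5B shRNA and 52.1% in KDM5A cDNA, against 13% in scrambled shRNA and 21.1% in untreated. FOSL1 held 2.12%, 1.53%, 3.45% and 12.7% in the same 4 erlotinib libraries, against 76.2% in scrambled shRNA and 53.4% in untreated. The shares of FOSL2 overlapped between groups, at 9.09% to 22.4% under erlotinib, against 9.42% in scrambled shRNA and 18.0% in untreated. Summed over the family the level was 378, 328, 240 and 120 CPM in CPI-455, KDM5A shRNA, the library labelled KDM5A and KDM5B shRNA and KDM5A cDNA, against 172 CPM in scrambled shRNA and 163 CPM in untreated. By value KDM5A cDNA, with 71 UMIs of the family, lay below both drug-free libraries in this sum, while FOS held the largest share of it as in the other erlotinib libraries.

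**Figure D2:**
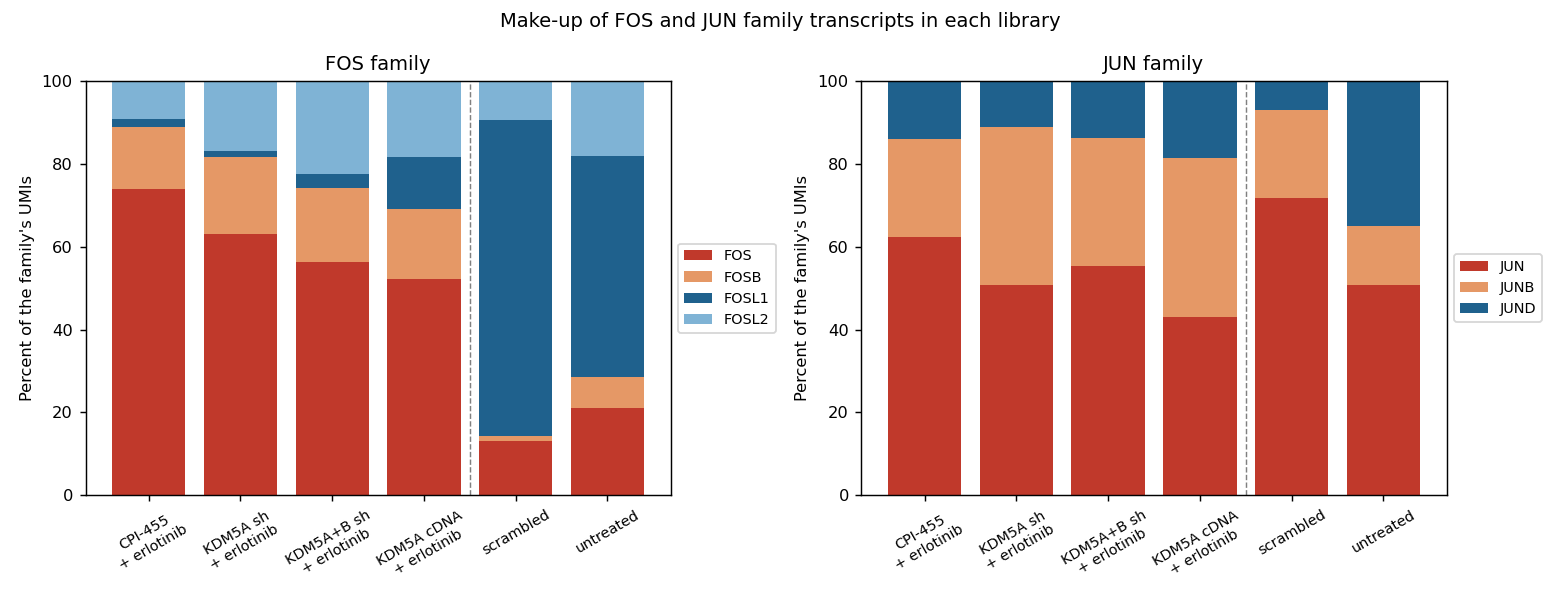
Share of the FOS family's UMIs (left) and of the JUN family's UMIs (right) held by each gene, in percent, erlotinib libraries to the left of the drug-free ones. FOS holds 52.1% to 73.9% of its family under erlotinib, and FOSL1 holds 53.4% and 76.2% in the drug-free libraries.

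Among the JUN proteins, which pair with FOS proteins or with each other, JUNB alone passed the test. JUNB was at 109 CPM in CPI-455, 167 CPM in KDM5A shRNA, 135 CPM in the library labelled KDM5A and KDM5B shRNA and 120 CPM in KDM5A cDNA, against 41.7 CPM in scrambled shRNA and 49.0 CPM in untreated. The groups did not overlap, and the log2 fold change was 1.59 (SE 0.25, edgeR adjusted p = 0.00175). JUNB overlaps HOOK2 on the opposite strand, and HOOK2 was at 61.0 to 77.8 CPM under erlotinib, against 32.4 CPM in scrambled shRNA and 80.4 CPM in untreated. With each cell thinned to 1000 UMIs the JUNB fold was 0.89 (edgeR adjusted p = 0.0868).

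JUN, the founding member, was at 288 CPM in CPI-455, 223 CPM in KDM5A shRNA, 243 CPM in the library labelled KDM5A and KDM5B shRNA and 134 CPM in KDM5A cDNA, against 141 CPM in scrambled shRNA and 174 CPM in untreated. Of the erlotinib libraries 3 lay above both drug-free ones and KDM5A cDNA lay below both. The log2 fold of 0.53 (SE 0.27) did not pass (edgeR adjusted p = 0.179).

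JUND, which is less dependent on induction than its relatives, was at 65.2 CPM in CPI-455, 48.9 CPM in KDM5A shRNA, 60.6 CPM in the library labelled KDM5A and KDM5B shRNA and 57.6 CPM in KDM5A cDNA, against 13.9 CPM in scrambled shRNA and 120 CPM in untreated. The erlotinib libraries lay close together, none apart from its neighbour among them, and between the drug-free values. The log2 fold was -0.21 (SE 0.61, edgeR adjusted p = 0.828). Without untreated it was 2.03 (edgeR adjusted p = 0.0064) and without scrambled shRNA it was -1.002 (edgeR adjusted p = 0.0258), so the direction is set by which drug-free library is used. In the JUN family JUND held 11.1% to 18.5% of UMIs under erlotinib, against 7.06% in scrambled shRNA and 35.0% in untreated.

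ATF3, a stress-induced bZIP factor that pairs with JUN proteins, was at 25.2 CPM in CPI-455, 94.6 CPM in KDM5A shRNA, 60.6 CPM in the library labelled KDM5A and KDM5B shRNA and 39.0 CPM in KDM5A cDNA, against 1.55 CPM in scrambled shRNA and 16.7 CPM in untreated. The groups did not overlap, but the lowest erlotinib library, CPI-455, was not apart from untreated by its counting interval, and scrambled shRNA held 2 UMIs. The log2 fold change was 2.45 (SE 0.74, edgeR adjusted p = 0.046), close to the threshold, and 5.08 without untreated. Over the alternatives the adjusted p ran up to 0.117, and the call was lost, among others, without scrambled shRNA, where the fold was 1.82 (edgeR adjusted p = 0.111), without KDM5A shRNA (adjusted p = 0.0691), without the library labelled KDM5A and KDM5B shRNA (adjusted p = 0.0883) and without KDM5A cDNA (adjusted p = 0.072).

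EGR1, a zinc finger factor induced by ERK and serum response factor, was at 81.3 CPM in CPI-455, 80.2 CPM in KDM5A shRNA, 60.6 CPM in the library labelled KDM5A and KDM5B shRNA and 6.78 CPM in KDM5A cDNA, against 23.2 CPM in scrambled shRNA and 5.81 CPM in untreated. The first 3 libraries were above both drug-free ones, while KDM5A cDNA, with 4 UMIs, was not apart from untreated. The log2 fold was 2.23 (SE 0.88, edgeR adjusted p = 0.105), and without KDM5A cDNA it was 2.59 and passed (edgeR adjusted p = 0.0129). The same gene passed with cells thinned to 1000 UMIs, at 2.57 (edgeR adjusted p = 0.0151). It did not pass without scrambled shRNA, at 3.39 (edgeR adjusted p = 0.12), or without untreated, at 1.33 (edgeR adjusted p = 0.443).

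IER2, a short-lived nuclear regulator induced with the others, was at 88.1 CPM in CPI-455, 75.2 CPM in KDM5A shRNA, 90.9 CPM in the library labelled KDM5A and KDM5B shRNA and 49.1 CPM in KDM5A cDNA, against 60.3 CPM in scrambled shRNA and 37.9 CPM in untreated. KDM5A cDNA lay between the drug-free values, and the log2 fold of 0.69 (SE 0.30) did not pass (edgeR adjusted p = 0.12). Over all 10 genes, FOS, FOSB, JUNB and ATF3 lay above both drug-free libraries in all 4 erlotinib libraries, as did 18.6% of all genes tested. FOSL1 lay below both in all 4, as did 26.7% of all genes.

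**Figure D3:**
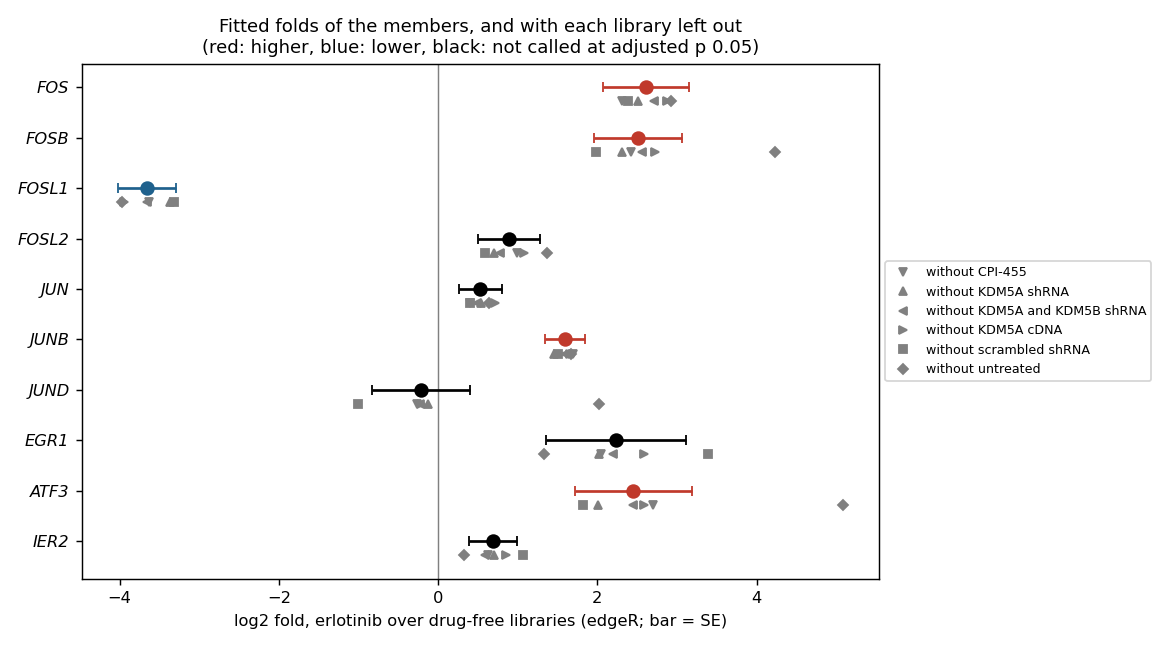
edgeR log2 fold changes of the 10 genes, erlotinib libraries (n = 4) against drug-free libraries (n = 2), with standard errors; grey symbols are the folds with each library left out in turn. Coloured points passed at an adjusted p of 0.05: FOS, FOSB, JUNB and ATF3 above 0, and FOSL1 at -3.65.

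Each erlotinib library was also set against its nearest drug-free library: the 3 transduced ones against scrambled shRNA, which they share, and CPI-455 against untreated. With 1 library on each side these ratios have no replicate check and carry exact 95% intervals for counting error only; a gene was called at a ratio of 2 or more in either direction with an interval that excluded 1. In KDM5A shRNA 7 members were higher and 1 was lower, where 12.2% and 15.1% of all genes were. In the library labelled KDM5A and KDM5B shRNA 7 were higher and 1 lower, where 13.7% and 15.5% of all genes were. In KDM5A cDNA 5 were higher and 2 lower, where 13.3% and 13.7% of all genes were. In CPI-455 against untreated 5 were higher and 1 lower, where 14.4% and 12.5% of all genes were.

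FOS was 9.23-fold (6.30 to 14) higher in KDM5A shRNA, 6.03-fold (3.95 to 9.46) in the library labelled KDM5A and KDM5B shRNA and 2.80-fold (1.67 to 4.72) in KDM5A cDNA than in scrambled shRNA, and 8.12-fold (6.56 to 10.1) higher in CPI-455 than in untreated. FOSL1 stood at ratios of 0.0382 (0.0162 to 0.0769), 0.0629 (0.0228 to 0.140) and 0.116 (0.0522 to 0.226) to scrambled shRNA in the same 3 transduced libraries, and at 0.0921 (0.0368 to 0.192) in CPI-455 to untreated. FOS, FOSB and JUNB were called higher and FOSL1 lower in all 4 pairs. Calls in the 3 transduced pairs are not independent, since they share scrambled shRNA. The share of all genes called alike in all 4 pairs was not counted. With cells thinned to 1000 UMIs FOSL1 was still called in all 4, but FOS was not in KDM5A cDNA (1.81, 0.503 to 6.30), nor FOSB in CPI-455 (2.67, 0.982 to 6.72), nor JUNB in the library labelled KDM5A and KDM5B shRNA (1.64, 0.656 to 4.06) and CPI-455 (0.985, 0.465 to 1.90). Thinned FOSB in KDM5A cDNA and the library labelled KDM5A and KDM5B shRNA had too few UMIs to be called. ATF3 was called in the 3 pairs against scrambled shRNA, with a ratio of 61.2 (16.7 to 510) in KDM5A shRNA resting on 151 UMIs against 2, and stood at 1.51 (0.887 to 2.48) in CPI-455 against untreated.

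EGR1 differed in direction between pairs. It was 3.46-fold (2.31 to 5.34) higher in KDM5A shRNA and 2.62-fold (1.61 to 4.31) higher in the library labelled KDM5A and KDM5B shRNA than in scrambled shRNA. In KDM5A cDNA EGR1 was at a ratio of 0.292 (0.0749 to 0.830), from 4 UMIs against 30. It was 14-fold (8.63 to 23.4) higher in CPI-455 than in untreated. With cells thinned to 1000 UMIs EGR1 was still called in KDM5A shRNA (4.01, 1.38 to 15.9) and CPI-455 (12.5, 4.59 to 39.4). It was then not called in the library labelled KDM5A and KDM5B shRNA (2.69, 0.637 to 12.9). Thinned EGR1 in KDM5A cDNA, with 1 UMI against 4, had too few to be called, so the lower direction was not seen at matched depth. JUND was 3.51-fold (2.08 to 6.24), 4.36-fold (2.47 to 8.02) and 4.14-fold (2.28 to 7.79) higher than scrambled shRNA in KDM5A shRNA, the library labelled KDM5A and KDM5B shRNA and KDM5A cDNA. In CPI-455 it stood at 0.542 (0.405 to 0.715) of untreated. JUN was not called in any of the 4 pairs, since no ratio reached 2. To scrambled shRNA it stood at 1.58 (1.32 to 1.90) in KDM5A shRNA and 0.947 (0.718 to 1.24) in KDM5A cDNA. In the library labelled KDM5A and KDM5B shRNA JUN was at 1.72 (1.39 to 2.12) of scrambled shRNA. CPI-455 had it at 1.65 (1.43 to 1.91) of untreated. All of these intervals but that of KDM5A cDNA lay above 1.

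**Figure D4:**
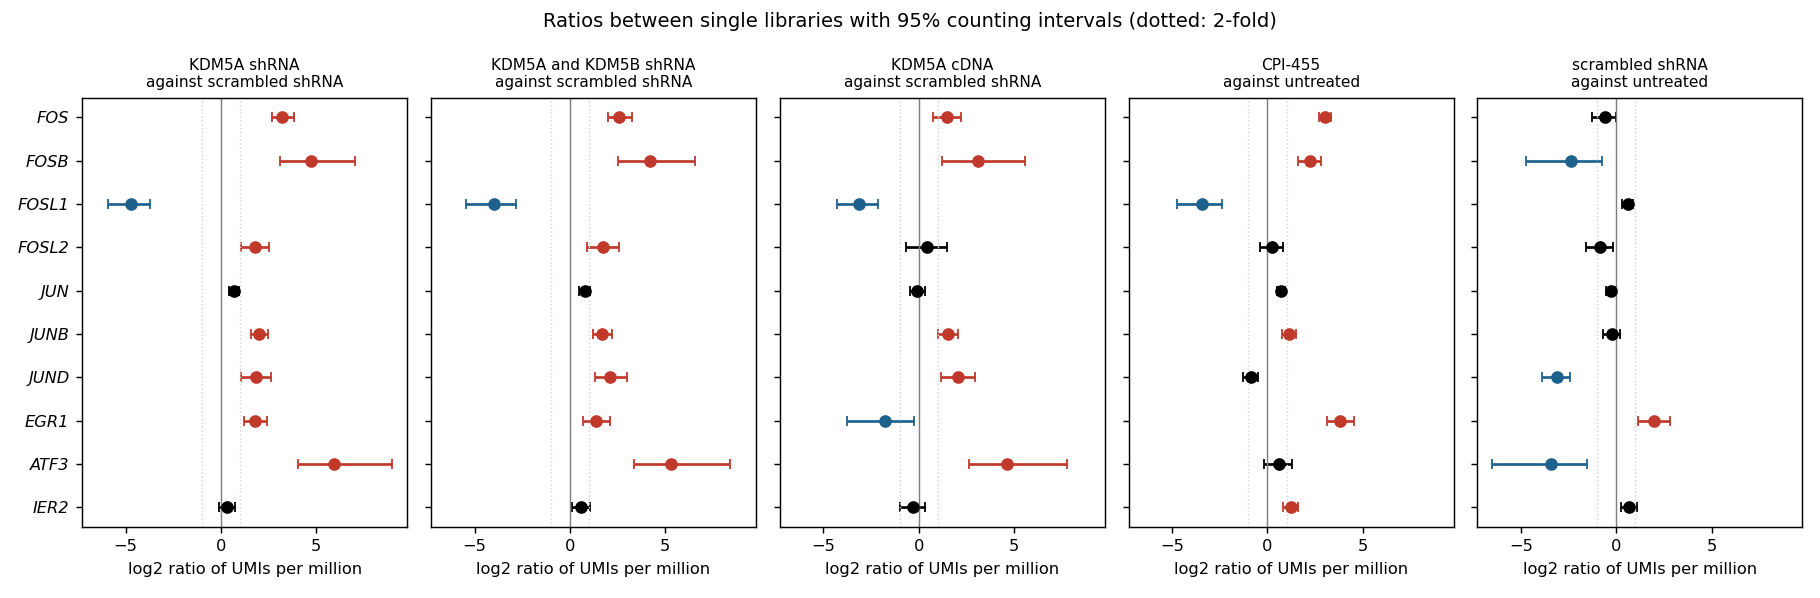
Log2 ratios of CPM between single libraries with 95% counting intervals, for the 4 erlotinib libraries against their nearest drug-free library and for scrambled shRNA against untreated. Red and blue points were called higher and lower; FOSL1 is lower in each of the 4 erlotinib pairs, and JUND changes sides between the pairs with scrambled shRNA and the pair with untreated.

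The drug-free libraries themselves differed in 4 members. Scrambled shRNA had 1 member higher and 3 lower than untreated, where 4.88% and 6.79% of all genes were. JUND was at a ratio of 0.116 (0.0679 to 0.185), ATF3 at 0.0926 (0.011 to 0.348) and FOSB at 0.191 (0.0381 to 0.593), and EGR1 was 3.99-fold (2.24 to 7.19) higher. FOS stood at 0.652 (0.421 to 0.979) and JUNB at 0.851 (0.617 to 1.16), neither past 2-fold. The FOSB and ATF3 ratios rest on 3 and 2 UMIs in scrambled shRNA. With cells thinned to 1000 UMIs JUND and ATF3 were still called lower. Thinned EGR1 (2.47, 0.512 to 10.4) and FOSB, with 0 UMIs against 15, were not called. Every comparison with a single drug-free library therefore carries these differences, and virus, serum and depth differ between those libraries together.

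A fit added after JUND was seen, with a term for the erlotinib difference in transduced minus untransduced cells, had 2 residual degrees of freedom. It called 0.0% of genes either way by edgeR, with 274 genes higher and 277 lower at an unadjusted p under 0.05. JUND was at 2.84 (SE 0.52, edgeR adjusted p = 0.56), from a log2 fold of 2.00 in transduced and -0.84 in untransduced cells. ATF3 was at 4.75 (SE 1.11, edgeR adjusted p = 0.662). For EGR1 the difference was -2.64 (SE 1.52), with an edgeR adjusted p of 0.964.

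Between the erlotinib libraries made with a shRNA and with a cDNA of the same gene, several members differed. KDM5A shRNA was called higher than KDM5A cDNA in 5 members and lower in 1, where 4.65% and 10.2% of all genes were. EGR1 was 11.8-fold (4.51 to 44.1) higher, FOS 3.30-fold (2.34 to 4.77), FOSB 2.99-fold (1.63 to 5.98), FOSL2 2.50-fold (1.39 to 4.88) and ATF3 2.43-fold (1.56 to 3.94), and FOSL1 was at 0.329 (0.110 to 0.959), with 8 UMIs against 9. JUNB, at 1.39 (1.07 to 1.83), and JUND, at 0.848 (0.560 to 1.31), were not called. With cells thinned to 1000 UMIs FOS, FOSL2 and EGR1 were still called. Thinned FOSB (2.53, 0.768 to 13.1) and ATF3 (1.37, 0.653 to 3.22) were not, and FOSL1 had too few UMIs to be called. With all barcodes kept FOSL1, at 0.396 (0.139 to 1.13), was not called either. These cells differ in the vector and in the day of erlotinib as well as in KDM5A, and with 1 library each these cannot be told apart.

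The library labelled KDM5A and KDM5B shRNA had no member called either way against KDM5A shRNA, where 5.48% of all genes were higher and 1.92% lower. Its member ratios ran from 0.641 (0.447 to 0.902) for ATF3 to 1.65 (0.472 to 5.42) for FOSL1. CPI-455 had 0 members higher and 1 lower than KDM5A shRNA, where 11.1% and 4.43% of all genes were. That member was ATF3, at 0.266 (0.162 to 0.418), while FOS stood at 1.35 (1.14 to 1.60) and EGR1 at 1.01 (0.747 to 1.36).

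Within libraries the question is how many cells carried the transcripts. Of all kept cells FOS had a UMI in 45.0% in CPI-455, 38.5% in KDM5A shRNA, 28.3% in the library labelled KDM5A and KDM5B shRNA and 17.6% in KDM5A cDNA, against 7.98% in scrambled shRNA and 8.06% in untreated. With cells thinned to 1000 UMIs, which leaves out 26 to 42 cells of each erlotinib library, 41 of scrambled shRNA and 344 of untreated, the shares were 17.7%, 17.8%, 8.87% and 5.71% in the same 4 libraries, against 3.15% in scrambled shRNA and 2.31% in untreated. The FOS UMIs of a cell with at least 1, unthinned, averaged 2.68, 2.29, 2.28 and 1.61, against 1.38 in scrambled shRNA and 1.45 in untreated. The share of cells lay above the drug-free values in each erlotinib library, with the lowest thinned share resting on 6 of 105 cells. At 1000 UMIs the mean count in cells with FOS was 1.34, 1.15, 1.09 and 1.00, against 1.00 in scrambled shRNA and 1.11 in untreated. This mean cannot fall under 1, and over all thinned cells FOS averaged 0.0255 UMIs in untreated to 0.238 in CPI-455. At that depth the mean stays near 1 and cannot show whether the count per cell differed.

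FOSL1 had a UMI in 0.61%, 0.602% and 0.806% of thinned cells in CPI-455, KDM5A shRNA and the library labelled KDM5A and KDM5B shRNA, and in 0 of 105 in KDM5A cDNA, which by a floor of 3 cells allows up to 2.86%, against 9.01% in scrambled shRNA and 7.06% in untreated. The unthinned FOSL1 shares were 3.47%, 1.34%, 3.29% and 6.11% in the 4 erlotinib libraries, against 34.2% in scrambled shRNA and 19.3% in untreated. EGR1 had one in 9.15%, 7.23%, 4.84% and 0.952% of thinned cells of the 4 erlotinib libraries, against 1.80% in scrambled shRNA and 0.73% in untreated. The unthinned EGR1 shares were 26.2%, 23.8%, 18.4% and 3.05%, against 6.84% and 1.72% in the same drug-free libraries. PC9 is a single epithelial line, so no cell type that should lack these genes was at hand as a measure of free RNA.

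At least 1 of the 10 genes was seen in 56.1%, 65.1%, 53.2% and 43.8% of thinned cells in CPI-455, KDM5A shRNA, the library labelled KDM5A and KDM5B shRNA and KDM5A cDNA, against 33.8% in scrambled shRNA and 41.5% in untreated. At least 2 were seen in 20.1%, 24.4%, 15.3% and 10.5%, against 7.21% in scrambled shRNA and 10.3% in untreated. KDM5A cDNA and untreated lay side by side on this count.

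**Figure D5:**
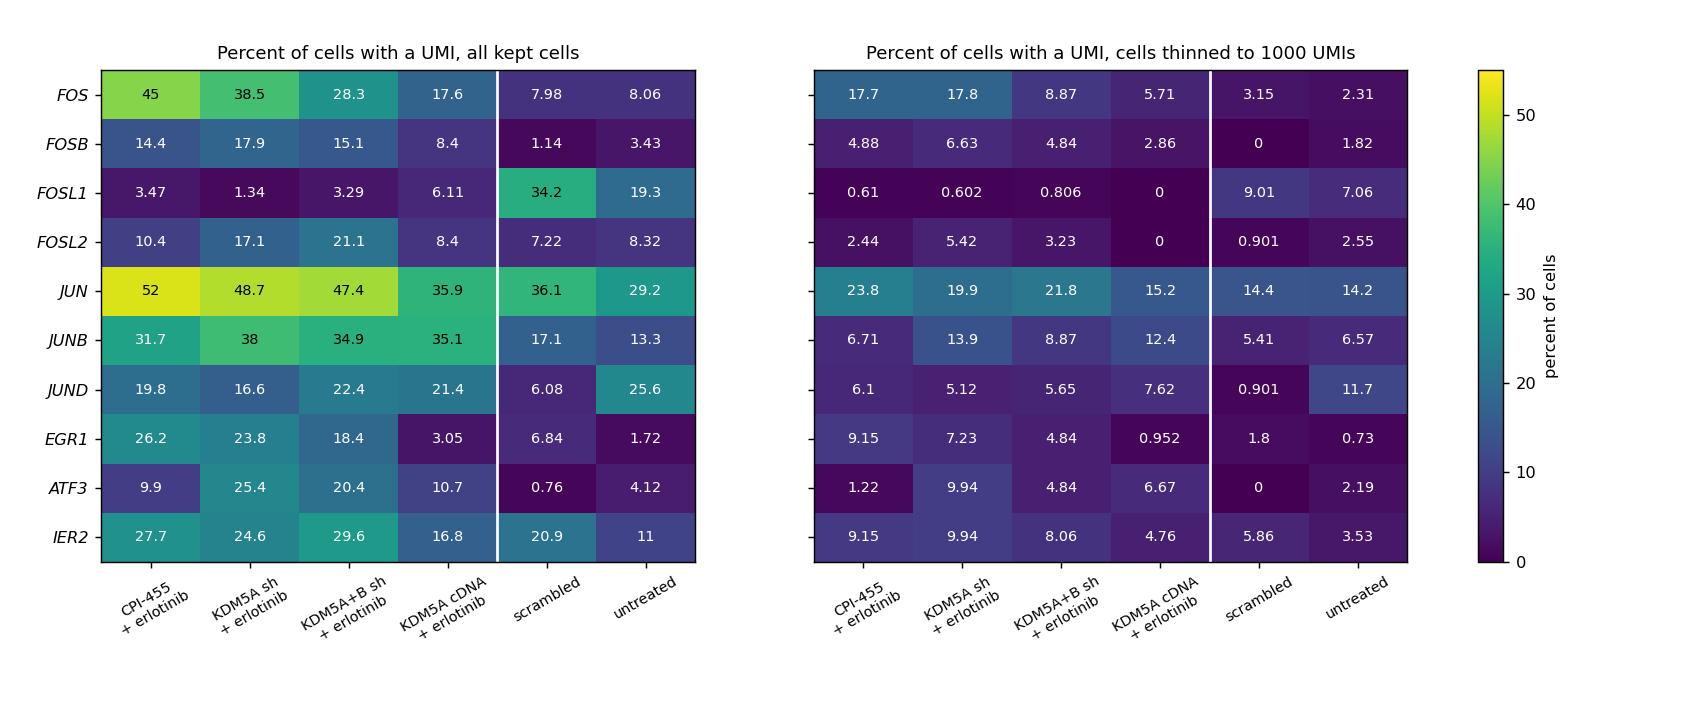
Percent of cells with at least 1 UMI of each gene, in all kept cells (left) and in cells thinned to 1000 UMIs (right), erlotinib libraries left of the white line. FOS reaches 45.0% of CPI-455 cells and FOSL1 34.2% of scrambled shRNA cells before thinning.

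The mitochondrial share was higher in every erlotinib library than in both drug-free ones, so it moves with the calls above. Inside libraries, cells above their library's median mitochondrial share were set against those below it for each gene. Of 60 gene and library combinations 54 had a counting interval that spanned 1, 3 were higher and 3 lower. EGR1 in KDM5A shRNA was at 104 CPM in the cells above the median and 59.3 CPM in those below, and FOS in untreated was at 42.9 CPM and 25.4 CPM. FOSB in KDM5A shRNA was higher too, at 74.3 CPM and 48.6 CPM. FOSB in CPI-455 went the other way, at 28.96 CPM in the cells above the median and 84.7 CPM in those below. So did FOSL1 in untreated, at 73.0 CPM and 102 CPM, and JUND in untreated, at 107 CPM and 135 CPM. In untreated cells above the median, FOS and FOSL1 thus differed in the same directions as under erlotinib. Whether the mitochondrial share has a part in the calls was not tested. With cells over 10% mitochondrial UMIs left out, the folds under erlotinib were 2.67 for FOS (edgeR adjusted p = 0.013) and 1.63 for JUNB (edgeR adjusted p = 0.00119), both still called, as were FOSB at 2.67 and FOSL1 at -3.70, while ATF3 at 2.38 was not (edgeR adjusted p = 0.071). Heat shock and dissociation genes summed to 10472 to 13024 CPM under erlotinib, against 22790 CPM in scrambled shRNA and 17333 CPM in untreated. In the edgeR fit 8 of the 13 tested genes of this list were not called, so the sum does not describe the whole list. The largest part of the sum was HSP90AA1, at 3754 to 4809 CPM under erlotinib, against 11696 CPM in scrambled shRNA and 9254 CPM in untreated. HSPB1 went the other way, at 335 to 945 CPM under erlotinib, against 236 CPM in scrambled shRNA and 281 CPM in untreated. HSPA1A and HSPA1B were not listed, and whether this sum follows handling was not tested.

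Other genes of the pathway were counted in the same fit, where 10.0% of all genes tested were higher and 13.5% lower. Of 13 tested genes of ERK output and feedback 9 were lower and none higher (median log2 fold -3.22, against 0.01 for all genes). They included DUSP4, a phosphatase that switches off ERK, at -4.31 (SE 0.33, edgeR adjusted p = 5.62e-05), PHLDA1 at -3.22 (SE 0.36), the receptor EPHA2 at -3.60 (SE 0.43) and CCND1, cyclin D1, at -2.27 (SE 0.46, edgeR adjusted p = 0.0107). Of 19 kinases and serum response factors upstream of the members, none was higher and 1 was lower (median -0.09), the JUN kinase gene MAPK9 at -1.22 (SE 0.28, edgeR adjusted p = 0.0129).

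Of 28 other immediate early genes 11 were higher and 1 lower (median 0.63), where 10.0% and 13.5% of all genes were. CYR61, a matrix protein, was at 2.21 (SE 0.42), the growth arrest gene GADD45A at 1.77 (SE 0.36), PPP1R15A, which restarts translation after stress, at 1.62 (SE 0.29) and ID3, an inhibitor of basic helix-loop-helix factors, at 2.52 (SE 0.58), with edgeR adjusted p of 0.00345 to 0.0171. The lower one, named after its value was seen, was the EGFR ligand HBEGF at -3.20 (SE 0.69, edgeR adjusted p = 0.0107). Of 21 other bZIP partners 2 were higher, near the 10.0% of all genes, and none lower (median 0.26). The higher ones were BATF at 1.60 (SE 0.24) and CEBPD at 2.53 (SE 0.30). Of 17 AP-1 target genes 4 were higher and 3 lower (median 0.04), with the keratin KRT17 at 5.33 (SE 1.14) and FHL2 at 1.66 (SE 0.29), and CD44 at -1.79 (SE 0.23). Of 13 heat shock and dissociation genes 1 was higher, HSPB1 at 1.45 (SE 0.39), and 4 were lower (median -0.28), among them HSP90AA1 at -1.23 (SE 0.19).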

How the data were processed

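Drop-seq libraries of PC9 cells, 6 in all and 1 for each condition, were analysed from the counts the authors deposited: whole-number UMI counts per gene and cell barcode, not normalized. Per the submitters' processing notes, reads were checked with FastQC and aligned with STAR to GRCh37.p13 (hg19); versions, the counting program and its use of strand are not given in the sources used here. Barcodes under 500 UMIs or over 20% mitochondrial UMIs were left out and the rest kept and summed per library. Totals were 590091 to 3956647 UMIs, so that 3 counts correspond to 0.758 to 5.08 CPM.

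The 4 erlotinib libraries were tested against the 2 drug-free ones with edgeR 4.0.16 (quasi-likelihood, TMM, Benjamini-Hochberg), with limma 3.58.1 (voom) and DESeq2 1.42.0 as alternatives. Single libraries were compared in 8 pairs by the ratio of CPM (UMIs scaled to the library total) with exact 95% intervals, among genes with at least 10 UMIs over both; intervals and floors cover counting error only. Doublets were not removed.

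The members and gene lists were chosen with earlier results of these data known. Up to 4 called genes of a list are named, those with most UMIs; some results under these rules are not reported here. Other settings were thinning to 1000 UMIs, no filter on low counts, other cell filters, a virus term, transduced libraries alone and each library left out. A fit of erlotinib by virus was added after the data were seen.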

Additional observations from a re-analysis of the deposited data

Results flagged for a closer look

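JUND was marked because the erlotinib libraries moved in opposite directions from their drug-free libraries. All 3 transduced libraries lay above scrambled shRNA (48.9, 60.6 and 57.6 CPM, against 13.9 CPM), and CPI-455 lay below untreated (65.2 CPM, against 120 CPM). The difference between these log2 folds, transduced minus untransduced, was 2.84 (SE 0.52, edgeR adjusted p = 0.56), so it did not pass over all genes. No library of the erlotinib group stood far enough from the other 3 to be marked for any of the 10 genes.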

How the results depend on the processing

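FOSL1 and FOSB kept their calls under every setting run. FOS lost its call with transduced libraries alone (2.62, edgeR adjusted p = 0.0602) and without either drug-free library, JUNB with thinned cells, and ATF3 under voom (limma adjusted p = 0.0811), thinning (0.0776), a limit of 10% mitochondrial UMIs (0.071), a virus term (0.117) and without 4 of the libraries in turn. Of the member folds under other settings 160 kept direction and call, 12 lost the call, 3 gained it and 4 reversed, all 4 for JUND: voom gave 0.18, a virus term 0.54, transduced libraries alone 1.98 (edgeR adjusted p = 0.0146) and leaving out untreated 2.03, where leaving out scrambled shRNA gave -1.002. Genes higher and lower were 487 and 532 with thinned cells and 479 and 856 with transduced libraries alone, against 1046 and 1412. DESeq2 gave 1126 and 1179. Leaving out 1 library at a time gave 500 to 1176 higher and 860 to 1341 lower genes, and 2 to 4 members higher and 1 to 2 lower; a lone drug-free library is then assumed to vary like the others. The counts fell most without the library labelled KDM5A and KDM5B shRNA (520 and 899), without scrambled shRNA (639 and 860) and without untreated (500 and 1045). Thinning, which keeps few UMIs, also changed how many members were called in pairs: 2 in the KDM5A and KDM5B shRNA pair and 3 in the KDM5A cDNA pair with scrambled shRNA, 2 for scrambled shRNA against untreated and 3 for KDM5A shRNA against KDM5A cDNA. It gave 2 each in the pairs of KDM5A and KDM5B shRNA and of CPI-455 with KDM5A shRNA, against 0 and 1 unthinned. JUNB in CPI-455 against untreated was at -0.0225 on the log2 scale with thinned cells, from 11 UMIs against 56. For the other changes the cause was not tested. No paired analysis was possible because each condition has 1 library.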

Other observations

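Pairs of members were counted in the same thinned cells where at least 5 such cells would follow from each gene's own share. FOS and JUN were seen together in 13 CPI-455 cells against 6.90 from their shares, and in 17 KDM5A shRNA cells against 11.7. In KDM5A shRNA, FOS with JUNB was in 10 cells against 8.17, FOS with ATF3 in 4 against 5.86 and JUN with JUNB in 8 against 9.14. The same library had FOS with IER2 in 8 against 5.86, JUN with ATF3 in 5 against 6.56 and JUN with IER2 in 7 against 6.56. In untreated cells FOSL1 with JUN was in 4 against 8.26, and JUN with JUND in 17 against 13.7. There FOSL1 with JUND was in 5 against 6.77, JUN with JUNB in 6 against 7.69 and JUNB with JUND in 6 against 6.31. These are small counts, given with no test.

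The genes most like a member over the 6 libraries, by Pearson's r of log2(CPM + 10) among 5059 genes at 50 CPM or more in at least 1 library, were XRCC2, TSR1 and POLR2H for FOSL1 (0.998, 0.998 and 0.998) and SLC31A2, EFNA1 and ANO6 for JUNB (0.994, 0.993 and 0.992). These describe 6 libraries that differ in depth, and with so many genes searched high values are found for every member.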
